A study of Caenorhabditis elegans with 2 samples.

Results

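The genes described here encode the sliding clamp of DNA replication (pcn-1), the loader that places it on DNA (rfc-1, rfc-2, rfc-3 and rfc-4), subunits of the single-strand binding protein RPA (rpa-1 and rpa-2) and subunits of the polymerase alpha-primase complex (pri-1, pri-2 and div-1). They were chosen by name and function, with earlier results of these data known, and all 10 were found among the 19985 protein-coding genes of the annotation. The data were chromatin immunoprecipitation with sequencing (ChIP-seq) of tagged DPL-1 from Caenorhabditis elegans taken whole as young adults, with both sexes pooled, in 1 group of 2 biological replicates. The labels describe the target as eGFP-tagged DPL-1 and give dpl-1 as the antibody. Per the labels, both replicates were of strain YL390, an unc-119(ed3) mutant with the transgene vrIs48, which places a DPL-1 fusion with GFP and FLAG tags under the pie-1 promoter. The transgene also holds the 3′ UTR of dpl-1 and unc-119(+). The pie-1 promoter is a germline promoter, the worms were not separated into tissues, and the native dpl-1 gene is not described as removed. No untagged or mutant group was compared, so every value is a level in this strain set beside the rest of the genome.

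DPL-1 is the worm DP protein. It pairs with E2F-type factors and is part of the DREAM complex, which represses cell cycle genes in many animals. PCN-1, the worm PCNA, is a ring that tethers polymerases to DNA, the RFC proteins open and close that ring, RPA coats the exposed single strand, and the primase makes the RNA start of each new strand before polymerase alpha extends it. Genes for these proteins are classic E2F targets in mammals. In the worm germ line, DNA replication serves the proliferating germ cells and the eggs they become.

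The sequences below were chosen because they carry the contrast among these promoters. Each is 29 bases of the plus strand of WBcel235 (ce11). Capitals mark an E2F-type match, TTNNCGC with each N being C or G, on either strand. At rfc-4 they mark a CHR-type match, TTNGAA with N being C or T. The pri-1 and div-1 lines, centred on the summit of the peak, have no capitals because neither motif lay within 100 bp. The last line is from the promoter of C39E9.12, the gene just upstream of rfc-3.
pcn-1, chrIV:4049643-4049671: tcgaatgaaacTTCGCGCctcaatttacc
rpa-1, far peak, chrII:7664028-7664056: aagttagatcgGCGGGAAaaaacaatttc
rpa-1, near peak, chrII:7664465-7664493: cgccattttttTTGGCGCgtatccggcct
rfc-1, chrV:14645971-14645999: taaaaaactgaGCGGGAAaagcaaattcc
rfc-2, chrIV:1347213-1347241: gaattttaagcGCGCCAAactgattttct
rfc-4, chrIII:6972123-6972151: ccgtacaccatTTCAAAcactctcggcgg
pri-1, chrIII:9614359-9614387: gcacatatgtagtgcggtaaactggttta
div-1, chrIII:10248596-10248624: gttgaatctcgcgcgctctcctgttttgc
C39E9.12, chrIV:13093866-13093894: caacgtacaccGCGCGAAaaacacaattt

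A peak was given to a gene when its summit lay from 1000 bp upstream to 500 bp downstream of an annotated transcript start. The authors deposited 30000 peaks for each replicate and for the pooled reads, and a list of 1546 peaks kept by the irreproducible discovery rate (IDR), which compares how peaks rank in separate calls. This optimal IDR list held exactly the 1546 pooled peaks of highest signal. Signal is the value that the authors' peak caller gave each peak against a control. It is used here within a list, and replicates are compared by rank, where rank 1 is the strongest peak. A gene with an optimal IDR peak in its window is called bound. The lists hold no read counts, so the depth is unknown and no counting error goes with a peak.

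Of the 10 genes, 8 had an optimal IDR peak, while 9.22% of all protein-coding genes did. The exceptions were 2 of the loader genes, rfc-2 and rfc-3. Any pooled peak was found at 9 genes, against 50.4% of all protein-coding genes, and among genes with a pooled peak 18.3% had an optimal IDR peak. Among the 1546 strongest peaks of replicate 1, 5 of the genes had a peak (8.89% of all protein-coding genes), and among those of replicate 2, 8 had (8.82%). The same 5 genes, pcn-1, rfc-1, rfc-4, rpa-1 and pri-2, had a peak among the strongest of both replicates, against 6.41% of all genes. Thus rpa-2, pri-1 and div-1 were among the strongest in replicate 2 and not in replicate 1.

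The strongest peaks of the 8 genes had a median rank of 346.5 and a median signal of 78.1. The median rank of the strongest peak over all bound protein-coding genes was 686, and the median signal of the list was 42.2. The ranks fell in 2 sets. Those of pcn-1, rpa-1, rfc-4, pri-2 and rfc-1 lay between 18 and 396, and those of pri-1, rpa-2 and div-1 between 1046 and 1066. Within the second set the signals ran only from 32.0 to 32.6, while the replicate ranks ran from 803 to 3896, so these 3 genes cannot be ordered.

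**Figure D1:**
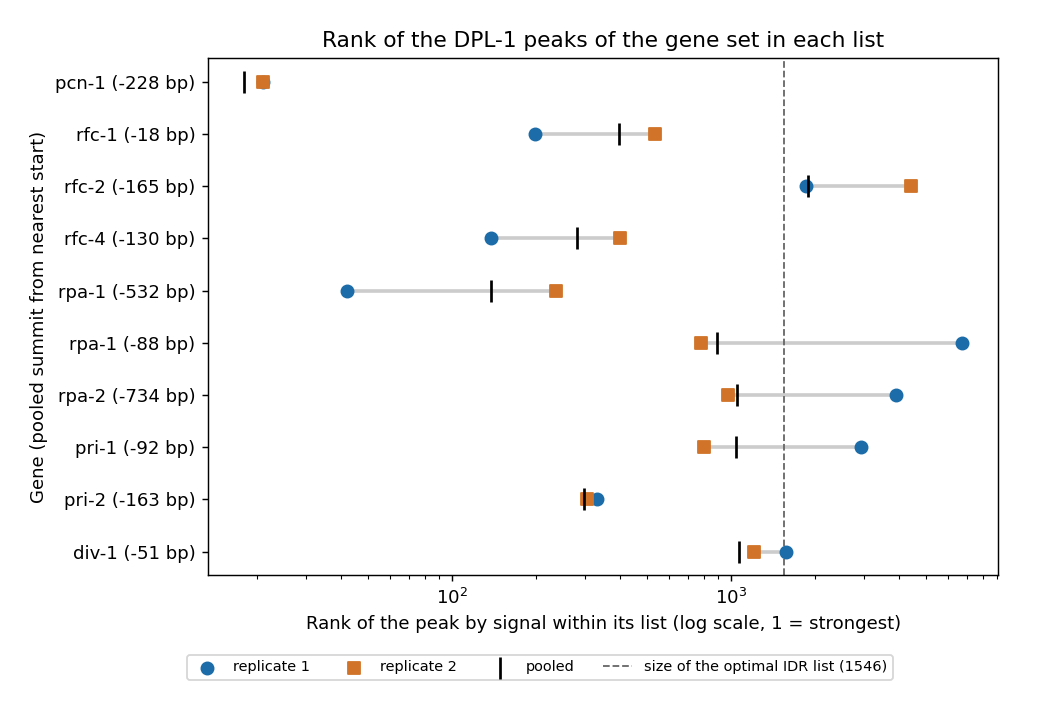
Rank by signal of each optimal IDR peak of the gene set, and of the pooled peak of rfc-2, in the list of replicate 1 (circles), of replicate 2 (squares) and of the pooled reads (bars), on a log axis with the strongest peaks on the left; the dashed line is the size of the optimal IDR list. The pcn-1 peak ranked 21 in both replicates, and the near peak of rpa-1 ranked 6747 in replicate 1 and 781 in replicate 2.

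The clamp gene pcn-1 had the strongest peak of the 10 genes. Its optimal IDR peak (chromosome IV, 4049567 to 4049801) had a signal of 244 and rank 18. The peak had a signal of 66.9 in replicate 1 and 178 in replicate 2, and ranked 21 in each. The summit lay 240 bp upstream of the start in replicate 1, 229 bp in replicate 2 and 228 bp in the pooled list, so the replicates placed it within 11 bp of each other. No other gene had a window over this summit. Of the pooled peaks in the window, the other was near the bottom of its list (signal 4.63, rank 27385) and lay over the start region of wrt-5, a hedgehog-related gene. Replicate 2 had a counterpart of this weak peak (signal 5.23, rank 10212) and a summit 362 bp downstream of the pcn-1 start (signal 3.97, rank 15995). Replicate 1 had neither.

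The loader genes differed the most among themselves. The peak of rfc-4, a small subunit (chromosome III, 6972053 to 6972187), had a signal of 88.2 and rank 281, and ranked 138 in replicate 1 and 400 in replicate 2. Its summit stood 130 bp upstream of rfc-4, but 38 bp upstream of the microRNA gene cel-mir-5549 and 411 bp upstream of eef-1A.1, a translation elongation factor gene on the opposite strand. The rfc-4 window held 2 further pooled peaks, 409 bp downstream (signal 10.4, rank 5410) and 828 bp upstream (signal 10.2, rank 5579). In replicate 1 their counterparts ranked 1332 and 1397, among the 1546 strongest of that list. In replicate 2 the upstream one ranked 4558 and the downstream one had none. The peak of rfc-1, the large subunit (chromosome V, 14645852 to 14646141), had a signal of 71.2 and rank 396, and ranked 198 and 536 in replicates 1 and 2. It was the closest of all to its start, with the summit 18 bp upstream, and 74 bp upstream in replicate 1 and 2 bp downstream in replicate 2. That summit was also 742 bp upstream of pmp-3, which encodes a peroxisomal-type ABC transporter. A further pooled peak of rfc-1, 417 bp downstream of its nearest start, was weak (signal 4.82, rank 25759). Neither replicate had a counterpart of it within 100 bp. Replicate 1 had another weak summit, 253 bp downstream of its nearest start (signal 3.73, rank 15266).

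The small-subunit gene rfc-2 lay just outside the optimal IDR list. Its pooled peak had a signal of 20.3 and rank 1881, while the weakest optimal IDR peak had a signal of 23.7. It was present in both replicates, with a signal of 8.95 and rank 1859 in replicate 1 and a signal of 8.03 and rank 4417 in replicate 2. Its summit stood 164 bp upstream of the start in replicate 1, 152 bp in replicate 2 and 165 bp in the pooled list, so the replicates placed it within 12 bp of each other. In replicate 1 it ranked above the peaks of pri-1 and rpa-2 and the near peak of rpa-1, and in replicate 2 below all 9 optimal IDR peaks of the gene set.

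The small-subunit gene rfc-3 had no pooled peak in its window. Replicate 1 had a summit 140 bp upstream (signal 2.43, rank 28635) and replicate 2 another at 271 bp upstream (signal 3.45, rank 19392). These were 131 bp apart, in lists whose weakest peaks had signals of 2.33 in replicate 1 and 2.24 in replicate 2. The arrangement of this gene differed from that of the other members. It follows C39E9.12, annotated by RefSeq as a SAP domain protein, on the same strand, with 272 bp between them. Closely spaced genes on 1 strand can form operons in worms, where a downstream gene is transcribed from the promoter of the first. Operon annotation was not used here, and a shared transcript was not tested.

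The promoter of C39E9.12 held a strong peak (chromosome IV, 13093793 to 13093947). It had a signal of 126 and rank 140, with ranks of 119 in replicate 1 and 182 in replicate 2. Its summit was 125 bp upstream of C39E9.12 and 1880 bp upstream of rfc-3, outside the window, and also lay in the window of prcc-1 on the opposite strand. An E2F-type match was centred 2 bp from it. The remaining loader subunit is annotated by RefSeq as F44B9.8, a putative subunit of replication factor C. It was not on the list and was looked up after the other values were seen. It had an optimal IDR peak 12 bp upstream of its start, with a signal of 32.6 and rank 1047, and ranked 3184 in replicate 1 and 1007 in replicate 2. It too follows a gene on its strand, F44B9.9, with 251 bp between them, and so in this arrangement 1 loader gene had a peak of its own and rfc-3 had none.

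The gene rpa-1, which encodes the large DNA-binding subunit of RPA, carried a pair of optimal IDR peaks with summits 444 bp apart. Only 54 bound protein-coding genes (2.93% of them) had more than 1 such peak. The far peak (chromosome II, 7663957 to 7664135), 532 bp upstream of the start, had a signal of 126 and rank 138. The near peak (chromosome II, 7664349 to 7664638), 88 bp upstream, had a signal of 37.0 and rank 891. The far peak was also 296 bp upstream of the divergent gene F18A1.7, and so was nearer to that gene than to rpa-1.

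The replicates gave the rpa-1 peaks different weights. The far peak had a signal of 56.8 and rank 42 in replicate 1, and a signal of 69.4 and rank 237 in replicate 2. The near peak had a signal of 5.37 and rank 6747 in replicate 1, and a signal of 28.6 and rank 781 in replicate 2. In both replicates the far peak was the stronger. The near one was among the 1546 strongest in replicate 2 but not in replicate 1. The log2 ratio of the replicate 1 rank to the replicate 2 rank was -2.50 for the far peak and 3.11 for the near one, the widest departures from equal ranks in both directions among the 9 optimal IDR peaks of these genes.

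The gene for the other RPA subunit measured, rpa-2, had a weak and distant peak. It lay 734 bp upstream of the start on chromosome I (4769413 to 4769702), with a signal of 32.5 and rank 1049. The rank was 3896 in replicate 1 and 977 in replicate 2, and the summits were 757 and 663 bp upstream, 94 bp apart. The peak was 495 bp upstream of M04F3.7, a long non-coding RNA gene on the other strand, and was in the window of no other protein-coding gene. Nearer the start, the pooled list had a summit 74 bp upstream (signal 6.40, rank 15701) and replicate 1 had a summit 159 bp upstream (rank 4991), while replicate 2 had none. When only summits from 500 bp before to 250 bp after a start were counted, rpa-2 had no optimal IDR peak.

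The primase genes were unlike each other. The large-subunit gene pri-2 had a peak of signal 85.0 and rank 297 on chromosome I (12532153 to 12532442), with ranks of 332 in replicate 1 and 306 in replicate 2. Replicate 1 placed its summit 191 bp upstream. Replicate 2 had summits at 116 bp (signal 59.5, rank 306) and 316 bp upstream (signal 22.7, rank 1013), on either side of the pooled summit at 163 bp. The same peak was 444 bp upstream of W02D9.2, a YIPF family gene transcribed the other way. The window held 2 weaker pooled peaks, 867 bp upstream (rank 8118) and 78 bp upstream of a later start (rank 8155), both found in replicate 2 and not in replicate 1.

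The gene of the catalytic small subunit, pri-1, had a peak of signal 32.6 and rank 1046 (chromosome III, 9614228 to 9614517). It ranked 2931 in replicate 1 and 803 in replicate 2, with summits 154 and 92 bp upstream. The start of the divergent gene F58A4.6 was almost as near, at 109 bp from the pooled summit. A second pooled peak stood 958 bp upstream (signal 15.8, rank 2579). Its counterpart in replicate 1, 924 bp upstream (signal 9.81, rank 1567), was stronger there than the peak at the start, and replicate 2 had none. For the summit at 154 bp in replicate 1, F58A4.6 was the nearer gene, at 47 bp.

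The gene div-1 encodes the B subunit of the polymerase alpha-primase complex, and is named for the delayed early embryonic divisions of its mutants. Its peak (chromosome III, 10248465 to 10248754) had a signal of 32.0 and rank 1066, and the replicates gave it ranks of 1577 and 1209. The summit was 51 bp upstream in the pooled list, 36 bp in replicate 1 and 65 bp in replicate 2. It also lay 501 bp upstream of cor-1, the coronin gene. The catalytic subunit of the same complex, pola-1, which was not on the list, had a peak of signal 131 and rank 133, so the genes of this complex ranked 133, 297, 1046 and 1066.

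Each replicate list held a summit within 100 bp of all 9 optimal IDR peaks of the gene set, and 88.9% of the whole list was matched in this way. The distance between a replicate summit and the pooled summit was 0 to 71 bp for them, with a median of 21 bp, and a median of 12 bp over all matched peaks. The median absolute log2 ratio of ranks was 1.54 for the 9 peaks and 0.89 over all 1375 matched peaks. Of the 9, 6 lay above 0.89, a median that by definition splits all matched peaks evenly. The widest shifts in both directions were at rpa-1. With so few peaks, larger rank shifts cannot be called a trait of the gene set. There were 3 peaks that ranked higher in replicate 1, those of rfc-1, rfc-4 and the far site of rpa-1. Another 5 ranked higher in replicate 2, and 51.9% of all matched peaks did so. The pcn-1 peak ranked the same in both.

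**Figure D2:**
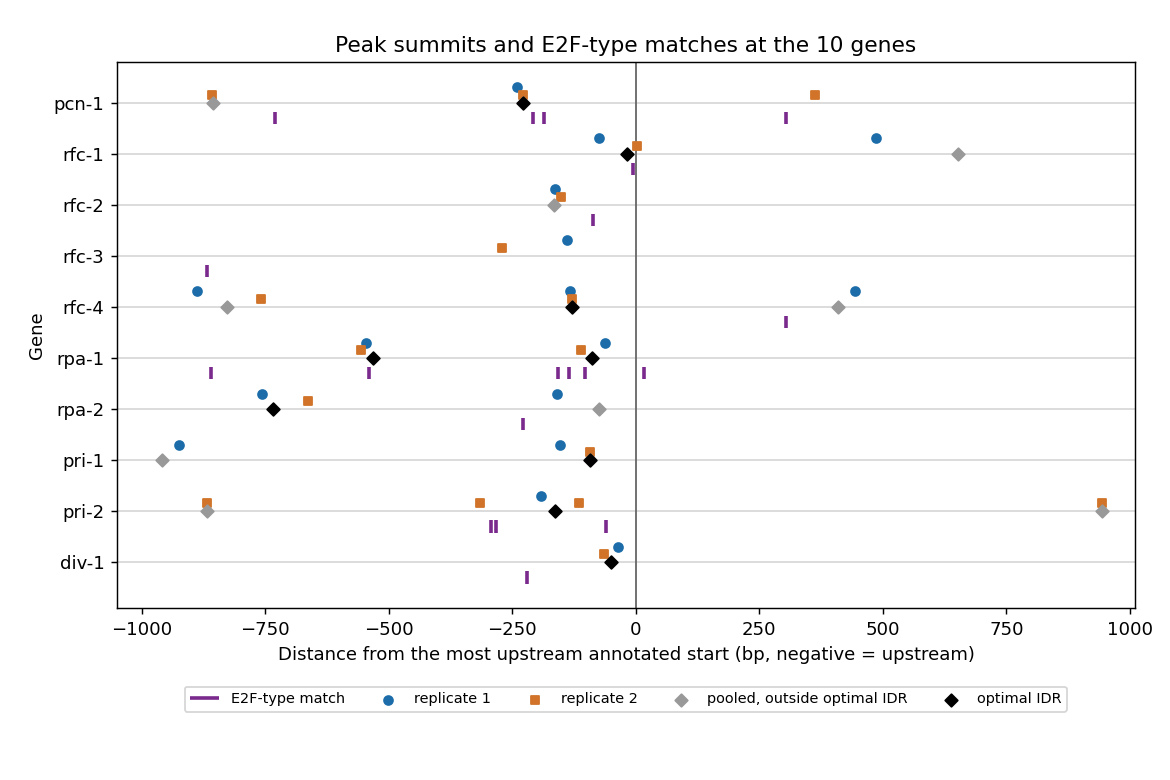
Position of every peak summit in the windows of the 10 genes, as the distance in bp from the most upstream annotated start (negative is upstream), for the optimal IDR list (black), the pooled list outside it (grey) and each replicate; vertical ticks below each line are E2F-type matches, searched from 1000 bp upstream to 500 bp downstream. The black diamonds lie from 18 to 734 bp upstream of the starts.

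The strongest peaks of all 8 genes lay upstream of the start, and their median distance was -146.5 bp, where a negative value is upstream. For the strongest peak of each bound protein-coding gene it was -222 bp. None of the 9 summits fell inside an annotated gene of any kind, so all were intergenic. Only pcn-1 and rpa-2 did not share a peak with a protein-coding neighbour. The other 7 peaks, of 6 genes, did, while 43.1% of the optimal IDR peaks in a protein-coding window were in the windows of 2 or more such genes.

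That sharing went with the arrangement of the genes. For rfc-1, rfc-4, rpa-1, pri-1, pri-2 and div-1 the nearest protein-coding gene upstream ran the other way within 1000 bp. The gaps were 760, 541, 828, 201, 607 and 552 bp. All 6 had an optimal IDR peak, against 25.8% of the 3502 protein-coding genes in this arrangement, which 17.5% of all genes had. A peak between such starts falls in both windows by construction, so the peak cannot be assigned to 1 gene. Of pcn-1, rfc-2 and rpa-2, which had neither arrangement, 2 had a peak, against 5.15% of such genes. Among the 3615 genes that follow another on the same strand within 500 bp, 7.61% had a peak, and rfc-3, the member in this class, had none.

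Other replication genes that follow a neighbour in this way were looked at after rfc-3 had been seen. The genes orc-2, orc-4, pole-2 and ctf-18 also lacked an optimal IDR peak. Each had one at the gene just upstream: copz-1 (signal 33.9, rank 1005), orc-1 (71.4, rank 395), snrp-3 (69.8, rank 405) and gtbp-1 (61.8, rank 474). With rfc-3 that made 5 of 5. Of the 5 peaks, 4 were also in the window of another gene, all but that of snrp-3. Over all 3340 same-strand followers without a peak of their own, 508 (15.2%) had a bound gene just upstream. The other 6 followers in the lists, among them mcm-4 and mcm-5, had optimal IDR peaks of their own, as had the loader gene F44B9.8, which is outside the lists.

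In the gene set 8 of 10 genes were bound, against 29 of 37 other replication genes. From replicate 1 alone it was 5 of 10 against 28 of 37, and from replicate 2 alone 8 of 10 against 28 of 37. With each peak given only to the nearest protein-coding start it was 8 of 10 against 22 of 37. Among the 773 strongest optimal IDR peaks it was 5 of 10 against 24 of 37. The share of all protein-coding genes at this cut is not given here. All 6 MCM helicase genes were bound, with a median rank of 164, led by mcm-2 (signal 219, rank 26), mcm-4 (147, rank 101) and mcm-3 (116, rank 163). So were all 4 nucleotide supply genes (median rank 458), led by dut-1 (98.8), rnr-1 (69.6) and rnr-2 (57.7). Of the 13 genes of GINS, polymerases and ligase 9 were bound (median rank 206). They were led by pola-1, ctf-4, a polymerase alpha adaptor (117), and pole-1, the catalytic subunit of polymerase epsilon (109).

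Of the 8 origin recognition and licensing genes 6 were bound (median rank 432.5), led by orc-5 (75.2), orc-1 and gmn-1, the geminin gene (67.0), and orc-2 and orc-4 were not. The closest relatives of the clamp and its loader are the checkpoint clamp genes and the alternative loader genes. Of these 4 of 6 were bound (median rank 663). The alternative loader gene hpr-17 had a signal of 115 and rank 166, mrt-2, a checkpoint clamp subunit, 46.1 and rank 681, and dscc-1, a subunit of a cohesion loader, 48.1 and rank 645. The genes hus-1 and ctf-18 had none. The strongest of these was thus weaker than pcn-1 and stronger than any replicative loader gene. No test was made between lists, which hold few genes.

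**Figure D3:**
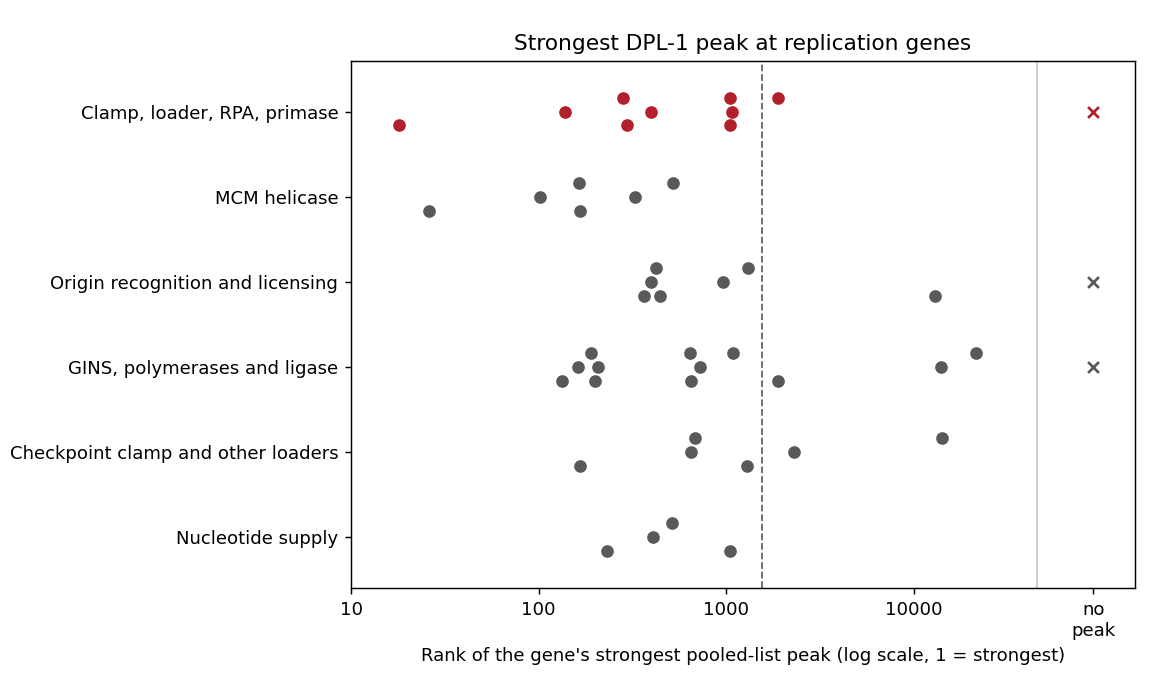
Rank of the strongest pooled peak of each gene (log axis, strongest on the left) for the clamp, loader, RPA and primase genes and for 5 lists of other replication genes; the dashed line is the size of the optimal IDR list and crosses are genes with no pooled peak in a window. The MCM helicase genes lie between ranks 26 and 522, and the gene set spreads from rank 18 past the dashed line.

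The E2F-type motif divided the gene set. It lay within 100 bp of the strongest optimal IDR summit at 3 of the 8 genes, pcn-1, rpa-1 and rfc-1, and of 36.7% of all optimal IDR summits, so the count was near that of the list. With the summits of either replicate the count was 4 of 8, through pri-2. At the other replication genes it was 22 of 29 peaks (75.9%). Among 10070 pooled promoter summits at least 1000 bp from any optimal IDR summit it was 8.62%. The reversed sequence CGCNNTT, which has the same composition, was at 1 of the 8 and at 13.8% of the list. A stricter, longer form of the E2F-type motif was also at 3 of the 8, but at 22% of the list. It was at 16 of 29 peaks of the other replication genes (55.2%) and at 4.16% of the promoter summits away from optimal IDR peaks. The nearness to the list share thus held only for the main form.

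The matches differed in number as well as in place. The clamp gene pcn-1 had a pair of identical matches, TTCGCGC, centred 19 and 43 bp from the summit and 209 and 185 bp upstream of the start, and 7.57% of optimal IDR peaks had 2 or more. At rpa-1 the far summit had 1 match 8 bp away, and the weaker near summit had 3, at 15, 48 and 69 bp. Over the whole window rpa-1 had 6 matches. The single match of rfc-1 was 12 bp from the summit and 6 bp upstream of the start.

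At 5 bound genes the motif was not within 100 bp of the pooled summit. At pri-2 the window held 3 matches, at 293, 282 and 60 bp upstream of the start, on either side of the pooled summit at 163 bp, the nearest 103 bp from it and so just outside the search distance. The nearest match was 91 bp from the summit of replicate 1 and 56 bp from that of replicate 2, so pri-2 had a match in each replicate. At div-1 the match was 221 bp upstream, and at rpa-2 it was 228 bp upstream, between the weak near peak and the far one. At rfc-4 the window held a match 304 bp inside the gene. At pri-1 the window held none, which says only that these letters are not there. The unbound rfc-2 had a match 87 bp upstream, 78 bp from its pooled summit. The window of rfc-3 held 1 match, 868 bp upstream.

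The CHR-type motif was at 5 of the 8 strongest summits, those of pcn-1, rpa-1, rfc-1, rfc-4 and pri-2, and at 63.9% of all optimal IDR summits, again near the share of the list. It was at 25 of 29 peaks of the other replication genes (86.2%) and at 54.5% of the promoter summits away from optimal IDR peaks. The reversed sequence AAGNTT was at 3 of the 8 and at 30.3% of the list. At pcn-1 a CHR-type match lay 1.5 bp from the summit. Another lay 31.5 bp from it, between the E2F-type matches, and neither overlapped them. The 3 genes of weakest peaks, pri-1, rpa-2 and div-1, had neither motif within 100 bp. The share of all optimal IDR summits with neither motif is not given here. A link between weak peaks and missing motifs was therefore not tested. Their GC contents over the same bases were 31.8%, 35.8% and 45.8%, and the middle 50% of nuclear optimal IDR summits ran from 34.8% to 43.3%.

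In the fixed promoter stretch from 250 bp before to 50 bp after the most upstream start, whether or not it held a peak, 7 of the 10 genes had an E2F-type match, against 9.2% of 19973 nuclear protein-coding promoters. The genes without were rfc-3, rfc-4 and pri-1. The reversed sequence was at 4 of the 10 and at 5.49% of promoters. A CHR-type match was at 9 of the 10, all but pri-1, and at 68.9% of promoters. For div-1 and rpa-2 the match was over 100 bp from the optimal IDR summit and from its counterparts in both replicates. For pri-2 the match in this stretch, 60 bp upstream, was over 100 bp from the pooled and replicate 1 summits, and 56 bp from that of replicate 2. The match 91 bp from the replicate 1 summit was another, 282 bp upstream and outside the stretch. At rpa-2 the match, 228 bp upstream, was closer to the weak replicate 1 summit 159 bp upstream.

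**Figure D4:**
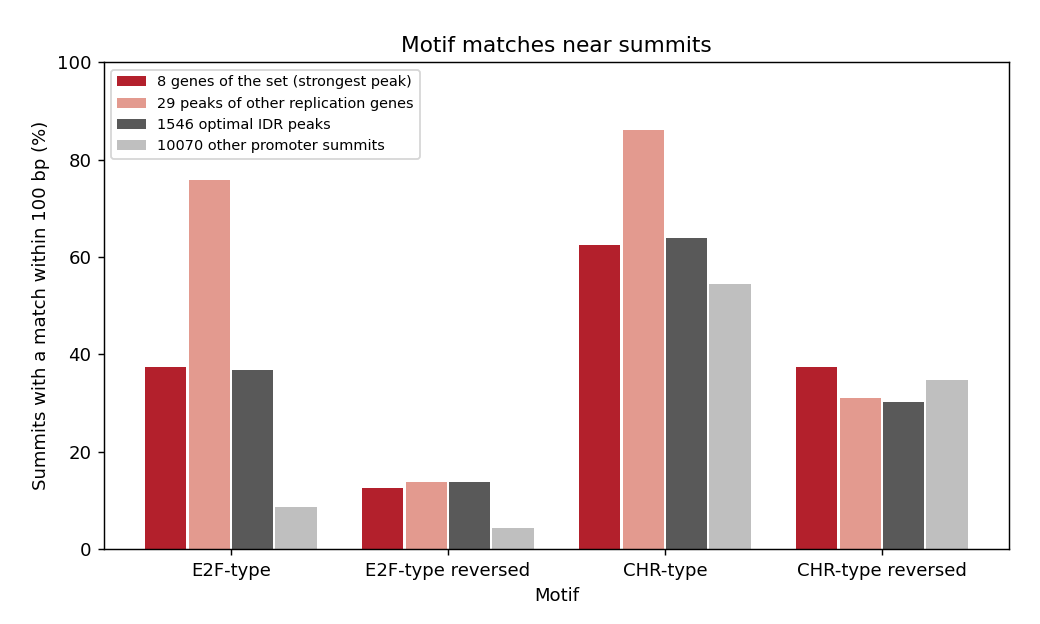
Share of summits with a motif match within 100 bp, in percent, for the strongest peaks of the gene set, the strongest peaks of the other replication genes, all optimal IDR peaks and pooled promoter summits away from them. The E2F-type share was 37.5% in the gene set, where 1 gene is 12.5 points, and 75.9% at the other replication genes.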

How the data were processed

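Per the labels, ChIP-seq was against GFP-tagged DPL-1 in 2 biological replicates. Per the deposited description files, each replicate list was called on that replicate's alignment against a control, and the pooled list on the alignments of both replicates, and the optimal IDR list was derived from these. No source used here names the aligner, the peak caller or a version. The signal column is the authors' value for each peak, deposited without a stated scale. The reads, signal tracks, control and ce10 lists were not used here.

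Lists were ranked by signal and summits (start plus offset) were assigned to windows around Ensembl 115 transcript starts on WBcel235, the sequence of ce11, whose chromosomes contain all peaks. Sequence came from the RefSeq copy of that assembly. Python 3.11.15, numpy 2.4.6 and pandas 2.3.3 were used, and window assignment, summit matching and motif search were checked on planted data. With 1 group of 2 replicates no test was made. The replicates are separate biosamples of 1 strain. Members and lists were chosen with earlier results of these data known. Of the listed comparison names, 3 (pold-1, pold-2 and atad-5) matched no gene name in the annotation. Named genes were all members, neighbours sharing an optimal IDR peak, and for each comparison list the 3 of highest signal plus, where 3 or fewer, those unbound. Alternatives were other windows, peak intervals, nearest protein-coding starts, fewer peaks, single replicates, match distances and motif settings.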

Additional observations from a re-analysis of the deposited data

How the results depend on the processing

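The count of 8 bound genes ranged from 7 to 9 over other windows, the peak interval and the nearest protein-coding start. With genes of every kind, the rfc-4 peak was nearer to cel-mir-5549 (38 bp) than to rfc-4 (130 bp). Likewise the rpa-2 peak was nearer to M04F3.7 (495 bp) than to rpa-2 (734 bp). The count of bound genes was 5 with the 773 strongest optimal IDR peaks, a cut for which the share of all protein-coding genes is not given. From single replicates it was 5 (without replicate 2) to 8 (without replicate 1), and in both cases of 5 the genes lost were rpa-2, pri-1 and div-1. The 2000 bp upstream to 1000 bp downstream window added rfc-3 through the C39E9.12 peak. The count of genes with an E2F-type match was 5 within 250 bp of the summit, which adds matches by construction. The count matched in both replicates was 5 with summits within 50 bp and 5 among the strongest replicate peaks. The CHR-type count stayed within 1.5 times under all alternatives run. For the comparison lists the count of 29 of 37 fell to 22 with the nearest protein-coding start, where the gene set kept 8 of 10. The median rank of 346.5 became 265 without replicate 2 and 468 without replicate 1. The 265 also counts rpa-2, pri-1 and div-1, which were not among the 1546 strongest peaks of replicate 1. From 2 replicates it cannot be said whether these shifts are large. No paired analysis was possible because there was 1 group. Depth is unknown, so it cannot be said which weak peaks it limits.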
